A study of Solanum lycopersicum and Solanum pennellii with 32 samples.

Results

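In roots of the cultivated tomato M82, the 200 genes described here were much more abundant in the midsection than in the tip. Their mean levels, with 1 CPM added, moved less than 2-fold with phosphate at either position. The list was chosen from 34843 gene IDs on measured values of M82. Levels were CPM, each gene's count as a share of its library's total, scaled to a common library size. Of all IDs, 8661 averaged 20 CPM or more in midsections at sufficient phosphate, and in 1962 of these (22.7%) every sufficient midsection lay above every sufficient tip. In 1258 of those the ratio of limiting to sufficient phosphate, taken on mean CPM + 1, lay between 0.5 and 2 at both positions. The 200 have the largest ratios of midsection to tip at sufficient phosphate. All 16 M82 libraries entered this choice, so M82 values are given as a description, without a test. The Pennellii libraries took no part in it and carry the tests.

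Seedlings of Solanum pennellii LA0716, a wild relative of tomato (Pennellii below), and of Solanum lycopersicum M82 were grown with limiting or sufficient phosphate for 8 to 10 days after germination, at 25 degrees Celsius with 12 hours of light. All plants of every group, controls included, carried a 35S:TRAP construct; 35S is a viral promoter active in most plant cells, and TRAP constructs add a tag to ribosomes. The RNA sequenced here is labelled total RNA. The groups are limiting midsection, sufficient midsection, limiting tip and sufficient tip in each species, with 4 biological replicates of 30 to 40 pooled plants each. A midsection is about 2 cm of root midway between shoot and tip, and a tip is the last 1 cm. The series asks how roots respond to a lack of phosphate.

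The root tip holds the meristem, where cells divide, and the zone where they elongate. The midsection holds mature tissue, with differentiated vascular strands, barrier layers in the endodermis and outer cell layers, and the sites where lateral roots form. A lack of phosphate is known to alter root growth and the expression of many transport and signalling genes. The list was chosen for a strong position difference and a small phosphate response in M82, and whether it holds such genes was not tested. The files and the reference table do not pair the IDs with names (0 of 34843 matched), so genes are given by ID, without functions, coordinates or sequences, and the labelled positions were not checked against marker genes. In these bulk samples, fewer cells of a type and less RNA per cell cannot be told apart.

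M82 libraries held 1084652 to 34103546 counts. Pennellii libraries held 6225 to 13124725, and the 11 with at least 100000 counts and no identical partner were used (137511 to 13124725 counts). They are 3 limiting midsections, 3 sufficient midsections, 3 limiting tips and 2 sufficient tips. At the depth of the shallowest used library, limiting midsection replicate 2 of Pennellii, 3 counts equal 21.8 CPM, and that library held counts of 97 of the 200 genes. Among M82 libraries, sufficient tip replicate 4 stood apart, with 154 of the 200 detected against 190 to 200 in the others. In Pennellii, limiting tip replicate 4 stood apart from the other tips, as described below.

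Together the 200 genes took a larger share of the midsection libraries than of the tip libraries used, in both species. In M82 the share was 3.25, 2.92, 3.01 and 3.02% in limiting midsections and 3.82, 3.90, 4.32 and 4.34% in sufficient midsections. It was 0.949, 0.894, 0.810 and 0.803% in limiting tips and 0.668, 0.606, 0.580 and 0.359% in sufficient tips. The M82 groups do not overlap between positions, which the choice of genes fixes at sufficient phosphate and, through the phosphate window, favours at limiting phosphate.

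In Pennellii, whose values did not choose the genes, the share was 2.61, 3.04 and 3.70% in limiting midsections and 2.32, 3.01 and 2.62% in sufficient midsections. It was 1.05, 1.09 and 2.20% in limiting tips and 1.28 and 1.54% in sufficient tips. All 6 midsections lay above all 5 tips, although limiting tip replicate 4, at 2.20%, came close to the lowest midsection, at 2.32%. This separation depends on the depth minimum, since limiting midsection replicate 3, left out with 38629 counts, had 2.00% (Wilson 95% interval 1.86 to 2.14%), below that tip. Counting error is small beside these differences, the Wilson 95% interval of the shallowest used library being 2.95 to 3.13%; it covers counting error only. A few genes carry much of the share, since the 10 most abundant of the 200 held 51.2 to 71.9% of it in the used Pennellii libraries.

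**Figure D1:**
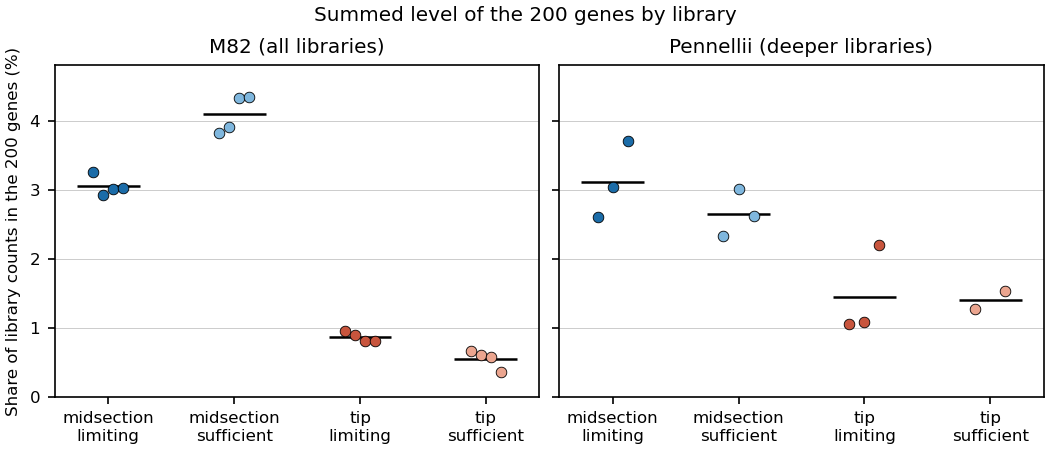
Share of each library's counts that fell in the 200 genes, in percent, for the 16 M82 libraries (left) and the 11 deeper Pennellii libraries (right). Each point is a library and each line a group mean; all 6 Pennellii midsections, at 2.32% or more, lie above all 5 tips, at 2.20% or less.

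The 200 genes span a wide range of levels in M82. Their median was 50.7 CPM in limiting midsections, 77.4 CPM in sufficient midsections, 12.4 CPM in limiting tips and 8.55 CPM in sufficient tips. In sufficient midsections 64 of them averaged under 50 CPM and the 5 most abundant averaged 1184 to 6015 CPM. The ratio of midsection to tip at sufficient phosphate, on mean CPM + 1, ran from 5.26 to 49.0 with a median of 7.29. Replicates varied more in tips, where the median coefficient of variation was 0.507 at limiting and 0.694 at sufficient phosphate, than in midsections, where it was 0.223 and 0.285.

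At the edges of the rule, values inside and outside lay close together, except at the upper midsection and the lower tip phosphate ratio. The last gene inside had a ratio of 5.2588 and the first outside 5.2585. The lowest level inside was 21.1 CPM, and a gene outside that met every other condition had 19.9 CPM. The midsection phosphate ratio reached down to 0.501 inside and lay at 0.497 in the nearest gene outside; its highest value was 1.33 inside and 2.35 in the nearest gene outside. The tip phosphate ratio ran from 0.502 to 1.97 inside, with 0.418 and 2.02 in the nearest genes outside.

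The genes share more than the rule asked for in their direction with phosphate, although within the allowed range. In midsections 187 of the 200 had a lower mean at limiting than at sufficient phosphate, with a median ratio of 0.632. In tips 171 had a higher mean at limiting phosphate, with a median ratio of 1.48, and 159 did both. In 56 genes every limiting midsection lay below every sufficient midsection, against 7.62% of the 8661 genes that met the level minimum. The ranking favours genes that are high in sufficient midsections and low in sufficient tips, so these directions are not independent of the choice, and no more is read from them. The name "stable" thus holds only in the sense of the window of 0.5 to 2 on mean CPM + 1. Near 0 that sum moves less than the level, as in tips for Solyc12g010910.2.1, at 1.30 CPM at limiting and 0.259 CPM at sufficient phosphate.

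The difference between positions was smaller at limiting phosphate in 196 of the 200 M82 genes. The median ratio of midsection to tip was 3.58 there, with a range of 1.77 to 26.6. Every limiting midsection lay above every limiting tip in 176 genes, against 18.5% of the genes that met the level minimum. The ranking used the ratio at sufficient phosphate, which favours a smaller one at limiting phosphate. The phosphate window limits how far the ratio can move, which favours separation there too, so both counts are a description.

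**Figure D2:**
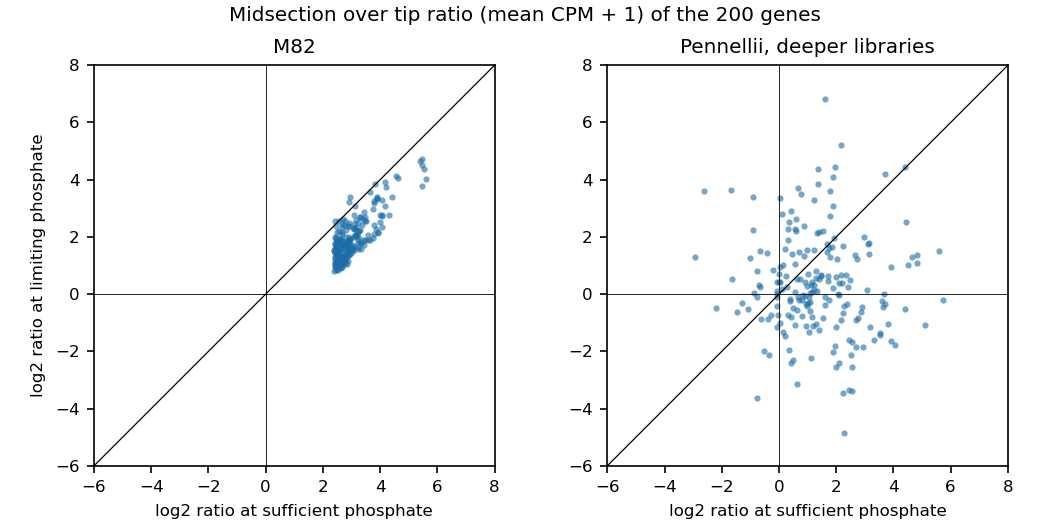
Log2 ratio of midsection to tip (mean CPM + 1) for each of the 200 genes, at limiting phosphate (vertical) against sufficient phosphate (horizontal), in M82 (left) and in the deeper Pennellii libraries (right); the diagonal marks equal ratios. In M82 196 of the 200 genes have the smaller ratio at limiting phosphate, which the ranking on the sufficient ratio favours. In Pennellii 93 genes lie above 0 on both axes and 16 below 0 on both. Of the 23334 genes with a count in these libraries (not plotted), 6288 and 4394 did so.

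A group of 6 genes led the M82 ranking, with ratios of 42.4 to 49.0, before the seventh gene at 25.0. Solyc09g092470.2.1, at rank 1, had 44.4, 13.8, 46.1 and 65.2 CPM in limiting midsections and 18.5, 81.7, 52.6 and 109.8 CPM in sufficient midsections, against 0.624, 0.615, 0 and 5.44 CPM in limiting tips and 0, 0.792, 0.644 and 0 CPM in sufficient tips. Its midsections varied several-fold among replicates but did not overlap with the tips. Solyc04g009030.3.1, at rank 2, averaged 114 ± 16.3 CPM in limiting midsections and 208 ± 36.6 CPM in sufficient midsections, against 4.51 ± 3.73 CPM and 3.47 ± 2.30 CPM in limiting and sufficient tips (SD, n = 4 each). Solyc02g085745.1.1, at rank 3, averaged 72.8 ± 26.2 and 141 ± 14.6 CPM in limiting and sufficient midsections, against 2.24 ± 0.80 and 2.24 ± 2.46 CPM in limiting and sufficient tips (SD, n = 4 each). In the sufficient tips 3 counts equal 0.088 to 2.13 CPM, so tip means in that range, and the ratios over them, carry wide counting error.

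Solyc12g010910.2.1, at rank 4, averaged 30.2 ± 11.2 and 54.2 ± 12.6 CPM in limiting and sufficient M82 midsections, against 1.30 ± 1.99 and 0.259 ± 0.304 CPM in limiting and sufficient tips (SD, n = 4 each). Solyc09g011710.3.1, at rank 5, had 198, 223, 173 and 193 CPM in limiting midsections and 233, 255, 489 and 403 CPM in sufficient midsections, against 1.25, 6.15, 4.02 and 14.4 CPM in limiting tips and 5.61, 5.92, 16.1 and 0 CPM in sufficient tips. Neither gene overlapped between positions at either phosphate level. Solyc05g051360.1.1, at rank 6, was the only one of the 200 without a count in any M82 sufficient tip, and it had none in the limiting tips either. It had 24.1, 25.7, 23.0 and 24.2 CPM in limiting midsections and 69.9, 16.7, 35.8 and 42.9 CPM in sufficient midsections. With 3 counts over the tip group taken as the floor, its summed counts were at least 190-fold higher in limiting midsections and at least 585-fold higher in sufficient midsections. The limiting bound was 112 without tip replicate 4, and the sufficient bound 105 without tip replicate 2, the deepest library. Some of its M82 counts were fractional, so its level is uncertain.

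In Pennellii the same leading genes behaved unequally. Solyc09g011710.3.1 had 13.5, 21.8 and 144 CPM in limiting midsections and 36.6, 73.8 and 106 CPM in sufficient midsections, against 2.41, 1.96 and 1.08 CPM in limiting tips and 3.35 and 1.51 CPM in sufficient tips. Solyc02g085745.1.1 had 64.7, 14.5 and 21.4 CPM in limiting midsections and 34.4, 45.9 and 56.8 CPM in sufficient midsections, against 8.23, 5.23 and 1.61 CPM in limiting tips and 0 and 2.27 CPM in sufficient tips. In both genes every midsection lay above every tip. Averaged over phosphate their log2 fold changes were 4.89 ± 1.56 and 4.03 ± 1.63 (SE), and the edgeR quasi-likelihood test with Benjamini-Hochberg adjustment gave adjusted p-values of 0.143 and 0.338, short of the threshold of 0.05.

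Other leading genes did not separate the Pennellii positions. Solyc04g009030.3.1 had 79.8, 167 and 96.5 CPM in limiting midsections and 136, 157 and 114 CPM in sufficient midsections, against 59.4, 11.8 and 664 CPM in limiting tips and 145 and 37.0 CPM in sufficient tips. The value of 664 CPM came from limiting tip replicate 4, and its log2 fold change over both phosphate levels was -0.58 ± 0.64 (SE; edgeR adjusted p 0.858). Solyc12g010910.2.1 stood at 138 CPM in the same library and at 7.85 CPM or less in each other used Pennellii library. Solyc05g051360.1.1 was detected in 2 of the 6 midsections, at 4.98 and 4.55 CPM in sufficient replicates 3 and 4, and in 0 of the 5 tips. Solyc01g111900.3.1, at rank 8 with 50.7 ± 11.5 and 46.6 ± 9.24 CPM (SD, n = 4 each) in limiting and sufficient M82 midsections, stayed at 3.35 CPM or less in every used Pennellii library.

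The gene of rank 1, Solyc09g092470.2.1, was low throughout Pennellii, at 7.53, 0 and 1.09 CPM in limiting midsections and 0, 16.6 and 7.09 CPM in sufficient midsections, against 4.41, 13.7 and 0.538 CPM in limiting tips and 0 and 0.756 CPM in sufficient tips. The positions overlap, and its log2 fold change of 1.72 ± 1.77 was not called (SE; edgeR adjusted p 0.841).

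Solyc05g006440.3.1, at rank 10, averaged 19.2 ± 7.20 and 39.3 ± 12.7 CPM in limiting and sufficient M82 midsections, against 1.95 ± 3.16 and 1.01 ± 0.99 CPM in limiting and sufficient tips (SD, n = 4 each). In Pennellii it averaged 11.7 ± 4.66 and 12.2 ± 10.1 CPM in limiting and sufficient midsections (SD, n = 3 each), against 10.3 ± 17.5 CPM in limiting tips (SD, n = 3), where replicate 1 alone had 30.5 CPM, and 1.12 and 0 CPM in sufficient tips. Its position difference was not called (log2 fold change 2.41 ± 1.76, edgeR adjusted p 0.710). Solyc09g007980.1.1 and Solyc02g084440.3.1, at ranks 7 and 9, are described with the tests.

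Over the whole list, 142 of the 200 genes (71.0%) had a higher mean CPM in the deeper Pennellii midsections than in the tips. The same held for 54.8% of the 23334 genes with a count in these libraries. Of the 184 listed genes that passed the filter on low counts it held for 128, against 47.8% of all 15485 that passed. The median log2 ratio of mean CPM + 1 of the 200, midsection over tip, was 0.56, against 0.05 over the 23334 genes. Without limiting tip replicate 4 these medians were 0.96 and 0.04, and 164 of the 200 were higher. The ratio exceeded 2 in 76 genes and 4 in 27; it was under 0.5 in 10, and in 114 the positions lay within 2-fold. Every midsection lay above every tip in 6 of the 200, all among the 184, against 0.323% of all genes that passed the filter. Every tip lay above every midsection in 0, against 0.697%.

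Within the list, the size of the M82 ratio said little about the ratio in Pennellii. The list holds only M82 ratios of 5.26 or more, so smaller ones are not covered. The first 50 genes in the M82 ranking had a median ratio of 14.3 in M82 and the last 50 one of 5.54, while their median Pennellii log2 ratios were 0.55 and 0.74. Over the 200 genes, which share libraries and are not replicates, Spearman's rho between both ratios was 0.01 and Pearson's r on the log2 scale 0.07, given as a description. The 1058 further genes that passed every filter of the rule had a median Pennellii log2 ratio of 0.33, with 65.6% higher in midsections. The 704 genes that met the level and separation conditions but fell outside the phosphate window had 0.32, with 60.5% higher. These differences between lists were not tested.

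**Figure D3:**
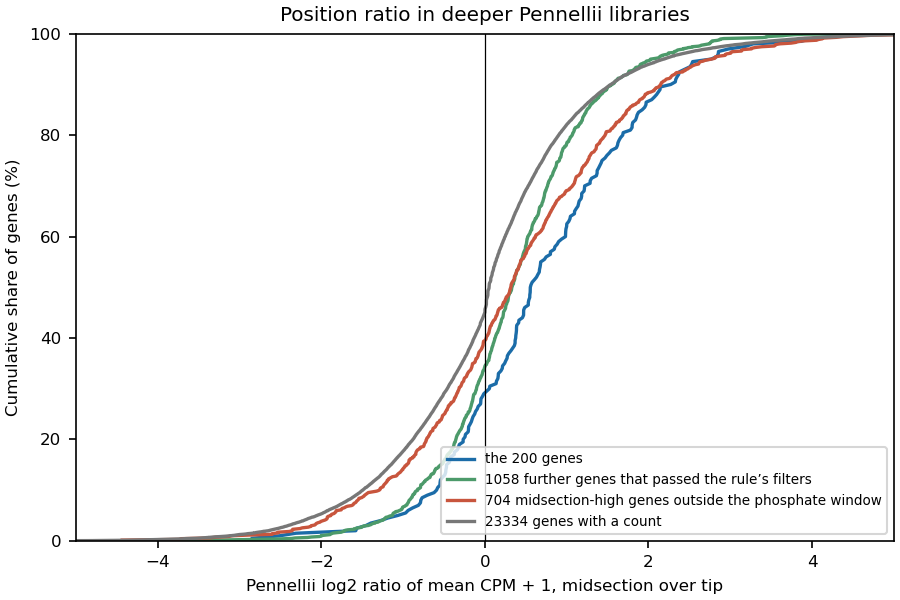
Cumulative share of genes, in percent, against the log2 ratio of mean CPM + 1 between the 6 midsections and 5 tips of the deeper Pennellii libraries, for the 200 genes, 2 related sets and all genes with a count. The curve of the 200 genes lies to the right of the curve of all genes around the middle, with medians of 0.56 and 0.05.

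**Figure D4:**
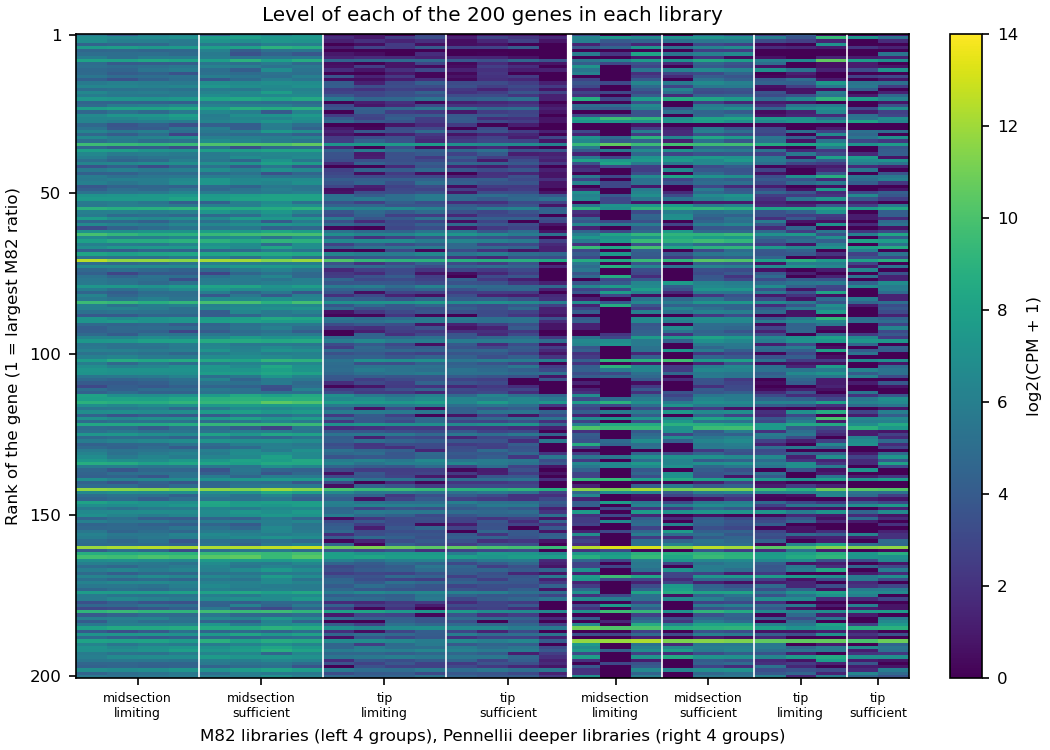
Level of each of the 200 genes, as log2(CPM + 1) in colour, with genes in rows by M82 rank and libraries in columns by group. The contrast between positions that chose the genes is plain in the M82 columns and is patchier in the Pennellii columns, where the second limiting midsection column, a library of 137511 counts, has most of its genes at or near 0.

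Tests in Pennellii used one fit of edgeR's quasi-likelihood test on the 11 libraries, with p-values adjusted over all 15485 genes tested; 184 of the 200 passed the filter on low counts and 16 were too low to test. Averaged over phosphate, 26 genes were higher in midsections than in tips, 0.168% of those tested, and 27 were lower, 0.174%. With RLE scaling the split was 51 higher and 28 lower. Of the 26 genes, 6 belong to the list, and 0 of its genes were called lower. In this fit the median log2 fold change was 0.90 over the 184 genes and 0.16 over all tested. The tested genes had to reach a count in some group, so these medians do not cover all 200.

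The 6 genes called higher in Pennellii midsections include both the most abundant gene of the list and one of its least abundant in M82. Solyc08g082120.2.1, the most abundant in M82, had 5731, 9817 and 9055 CPM in limiting Pennellii midsections and 2995, 6094 and 4330.1 CPM in sufficient midsections, against 1376, 1310 and 2651 CPM in limiting tips and 2708 and 3219 CPM in sufficient tips. The limiting groups do not overlap, while the sufficient groups overlap. Averaged over phosphate, its log2 fold change of 1.21 ± 0.24 (SE) passed the edgeR test (adjusted p 0.00157). In M82 it averaged 4946 ± 851 and 6015 ± 1021 CPM in limiting and sufficient midsections, against 1878 ± 422 and 1047 ± 344 CPM in limiting and sufficient tips (SD, n = 4 each).

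Solyc03g119060.3.1 is the only called gene in which every Pennellii midsection lay above every tip. It had 671, 1549 and 742 CPM in limiting midsections and 886, 766 and 827 CPM in sufficient midsections, against 386, 294 and 232 CPM in limiting tips and 141 and 209 CPM in sufficient tips. Its log2 fold change was 1.87 ± 0.44 (SE; edgeR adjusted p 0.0189). In M82, too, it was among the 5 most abundant of the list, at 699 ± 69.1 and 1235 ± 202 CPM in limiting and sufficient midsections, against 186 ± 25.9 and 102 ± 22.0 CPM in limiting and sufficient tips (SD, n = 4 each).

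Solyc04g080010.3.1 and Solyc04g025040.1.1 had low values in all limiting tips of Pennellii. Solyc04g080010.3.1 had 18.1, 553 and 463 CPM in limiting Pennellii midsections and 841, 205 and 247 CPM in sufficient midsections, against 35.9, 4.58 and 4.30 CPM in limiting tips and 91.7 and 127 CPM in sufficient tips (log2 fold change 3.17 ± 0.67 SE, edgeR adjusted p 0.0033). Solyc04g025040.1.1 had 55.7, 196 and 690.1 CPM in limiting midsections and 527, 779 and 591 CPM in sufficient midsections, against 14.2, 30.7 and 17.7 CPM in limiting tips and 265 and 221 CPM in sufficient tips (log2 fold change 2.54 ± 0.58 SE, edgeR adjusted p 0.0132). In both genes replicate 1 was the lowest limiting midsection, and all sufficient midsections lay above both sufficient tips. For Solyc04g080010.3.1 that midsection, at 18.1 CPM, lay below limiting tip replicate 1, at 35.9 CPM, so its limiting groups overlap. The limiting groups of Solyc04g025040.1.1 do not overlap. In M82 the limiting tips of both averaged higher than the sufficient tips, at 107 ± 45.4 against 57.9 ± 8.54 CPM and at 92.2 ± 24.4 against 52.3 ± 33.2 CPM (SD, n = 4 each). The M82 tip groups overlap between phosphate levels in both genes.

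Solyc07g064160.3.1 had 1117, 684 and 658 CPM in limiting Pennellii midsections and 138, 747 and 833 CPM in sufficient midsections, against 192, 16.3 and 7.53 CPM in limiting tips and 489.6 and 178 CPM in sufficient tips. Its log2 fold change was 2.20 ± 0.49 (SE; edgeR adjusted p 0.00807), and its limiting groups do not overlap. It is among the less abundant of the list in M82, at 26.6 ± 7.85 and 24.2 ± 17.2 CPM in limiting and sufficient midsections, against 3.46 ± 0.82 and 2.82 ± 1.07 CPM in limiting and sufficient tips (SD, n = 4 each). Pennellii reads were mapped to M82, so levels are set side by side here and not compared between the species.

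Solyc09g007980.1.1 had 54.4, 3.64 and 280.3 CPM in limiting Pennellii midsections and 41.5, 66.9 and 90.7 CPM in sufficient midsections, no count in any limiting tip, and 0 and 41.7 CPM in sufficient tips. It passed the threshold with an edgeR adjusted p of 0.0312. Its summed counts were at least 684-fold higher in limiting midsections than in limiting tips, again with 3 counts over the tip group as the floor. Of its 1320 counts there, 1284 came from replicate 4, and the bound was 125 without it and 277 without limiting tip replicate 1. In M82 it had 31.9, 32.2, 33.2 and 27.7 CPM in limiting midsections and 53.5, 10.6, 21.2 and 12.9 CPM in sufficient midsections, against 2.57 CPM or less in every tip. Fractional values were found in 31.3% of the M82 libraries for this gene.

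These calls rest on few libraries. Without sufficient tip replicate 1 or 3, 0 of the 200 were called higher, with 1 gene called higher over all genes in each fit. Without sufficient midsection replicate 3 or 4 the list had 2 such calls, of 5 and 3 over all genes, and without limiting tip replicate 2 it had 3 of 16. Some other fits had more calls in the list and over all genes alike. These were 10 of 76 without limiting tip replicate 4, 11 of 42 without limiting midsection replicate 2 and 11 of 203 with DESeq2. Others had fewer in the list, with 5 of 11 without a filter on low counts and 2 of 5 with the replicate number as a block. Without a depth minimum it was 5 of 107 with identical columns left out and 4 of 71 with them kept.

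**Figure D5:**
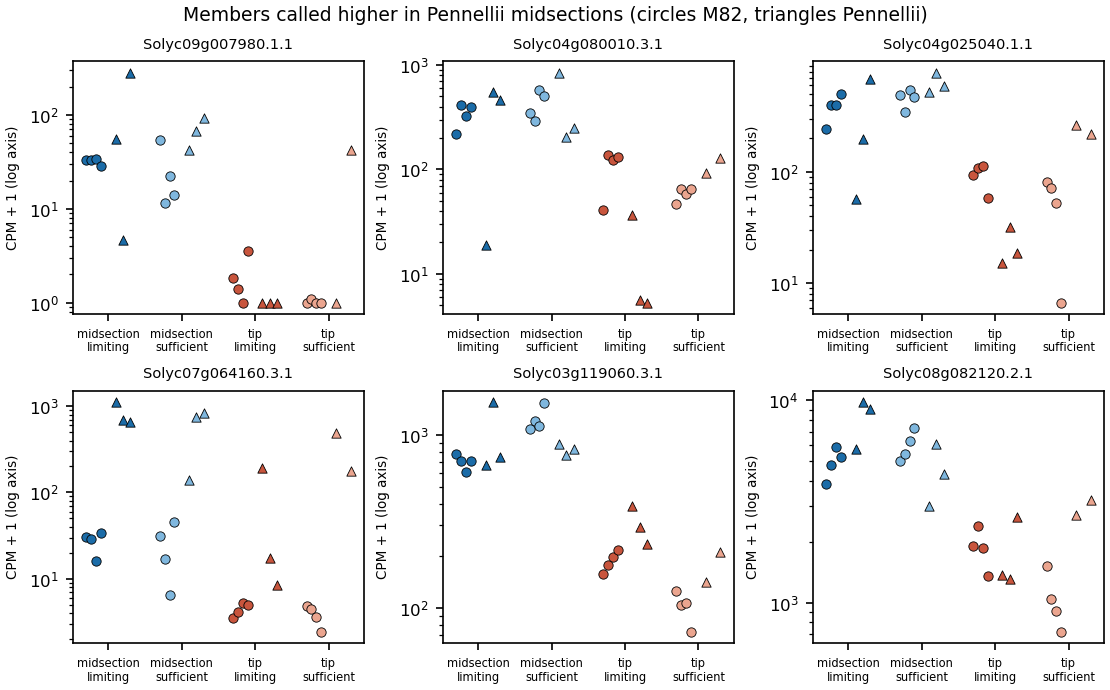
CPM + 1 on a log axis for the 6 genes called higher in Pennellii midsections, by group, with M82 libraries as circles and deeper Pennellii libraries as triangles. Solyc03g119060.3.1 separates the Pennellii positions completely, and Solyc09g007980.1.1 has no count in the Pennellii limiting tips.

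At limiting phosphate 20 genes were higher in Pennellii midsections than in tips, 0.129% of those tested, and 13 were lower, 0.0840% (edgeR quasi-likelihood test, 3 and 3 libraries; with RLE scaling 47 and 15). Of the list, 6 genes were called higher, 5 of them named above (all but Solyc03g119060.3.1), and 1 lower. The log2 fold changes at limiting phosphate were 1.83 ± 0.32 for Solyc08g082120.2.1 (edgeR adjusted p 6.92e-05), 3.60 ± 0.67 for Solyc07g064160.3.1 (0.000329), 4.32 ± 0.90 for Solyc04g080010.3.1 (0.00462) and 3.68 ± 0.79 for Solyc04g025040.1.1 (0.00626), each with its SE. Of the list, 3 were called higher without limiting tip replicate 2, with 5 over all genes. The list had 9 such calls without limiting midsection replicate 2, of 25 over all genes, and 9 without limiting tip replicate 4, of 28.

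The sixth gene called at limiting phosphate, Solyc10g078600.2.1, is named here after its values were seen. It had 2097, 1127 and 1064 CPM in limiting Pennellii midsections and 454, 510.0 and 568 CPM in sufficient midsections, against 264, 141 and 206 CPM in limiting tips and 452 and 489 CPM in sufficient tips. The positions lay far apart at limiting phosphate (log2 fold change 2.67 ± 0.56 SE, edgeR adjusted p 0.00493) and overlapped at sufficient phosphate (0.13 ± 0.59, adjusted p 0.993). In M82 it averaged 338 ± 53.9 and 413 ± 53.7 CPM in limiting and sufficient midsections, against 110 ± 17.3 and 75.2 ± 26.9 CPM in limiting and sufficient tips (SD, n = 4 each).

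The gene called lower, Solyc02g084440.3.1, ranks 9th in M82, where it had 271, 260.0, 324 and 263 CPM in limiting midsections and 232, 496, 239 and 411 CPM in sufficient midsections, against 22.5, 25.4, 28.4 and 26.8 CPM in limiting tips and 13.9, 10.1, 24.5 and 12.1 CPM in sufficient tips. In Pennellii it had 45.2, 72.7 and 199 CPM in limiting midsections and 140, 332 and 220.1 CPM in sufficient midsections, against 67.4, 97.4 and 1532 CPM in limiting tips and 219 and 125 CPM in sufficient tips. Limiting tip replicate 4 holds the value of 1532 CPM, and the other tips overlap with the midsections. The log2 fold change at limiting phosphate was -3.06 ± 0.71 (SE; edgeR adjusted p 0.0142) with that library and 0.43 (adjusted p 1) without it.

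Limiting tip replicate 4 of Pennellii was the highest of the 11 libraries in 32 of the 200 genes. The number was 8 to 11 in the other tips and 14 to 33 in the midsections, and the share over all genes is not given here. In limiting tip replicate 4 the median of the 200 was nevertheless 6.45 CPM, below the 11.1 and 11.4 CPM of the other limiting tips. Its high share thus comes from part of the list. The part of this library in the other results was not tested beyond leaving it out.

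At sufficient phosphate, with 3 midsections and 2 tips, 2 genes were higher in Pennellii midsections, 0.0129% of those tested, and 0 lower (edgeR quasi-likelihood test, with 1014 genes at an unadjusted p under 0.05). None of the list was called, 21 of its 184 tested genes had an unadjusted p under 0.05, and DESeq2 called 1 higher, of 42 over all genes, and limma-voom 0. As a description, 168 of the 200 had a higher mean CPM in sufficient midsections than in sufficient tips, with a median log2 ratio of 1.21. At limiting phosphate the same held for 109 of the 200, with a median of 0.17, or for 126 without limiting tip replicate 4. Of the 23334 genes, 14390 were higher in midsections at sufficient and 10090 at limiting phosphate, with medians of 0.23 and 0.00. Their number without limiting tip replicate 4 is not given here.

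The interaction of phosphate with position was not called in any of the 184 tested genes of the list (edgeR quasi-likelihood test, 29 at an unadjusted p under 0.05, against 1179 of the 15485 genes; DESeq2 0, limma-voom 0). Without limiting tip replicate 1 it was called higher in 1 gene of the list and 4 over all genes, and without replicate 4 in 1 and 7. Over all genes it was called higher in 4, 0.0258% of those tested, and lower in 6, 0.0387%. The median interaction on the log2 scale was -1.28 over the 184 genes and -0.50 over all tested, or -0.58 and -0.34 without limiting tip replicate 4. For 4 of the 5 genes called in both position tests the interactions were 1.23 ± 0.46 for Solyc08g082120.2.1, 2.80 ± 0.91 for Solyc07g064160.3.1, 2.30 ± 1.18 for Solyc04g080010.3.1 and 2.28 ± 1.06 for Solyc04g025040.1.1 (SE; edgeR adjusted p 0.434, 0.290, 0.657 and 0.583). None passed, and these genes were picked partly for a large difference at limiting phosphate, which favours a positive interaction, so nothing is read from the sign. The fifth, Solyc09g007980.1.1, has no count in limiting tips and gets no size.

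Phosphate changed no gene of the list past the threshold in Pennellii. In tips 10 genes rose, 0.0646% of those tested, and 2 fell, 0.0129%, at limiting phosphate, with 0 of the list called (edgeR quasi-likelihood test; 27 of its 184 tested genes at an unadjusted p under 0.05, against 1588 of all 15485). DESeq2 called 2 of the list higher and 2 lower, against 211 and 83 over all genes, and limma-voom called 0. In midsections 3 rose, 0.0194%, and 2 fell, 0.0129%, with 0 of the list called (edgeR; 7 of 184 at an unadjusted p under 0.05, against 546 of 15485). Here DESeq2 called 0 of the list and limma-voom 4 higher, of 34 over all genes. The closest to the threshold was Solyc04g025040.1.1 in tips, with a log2 fold change of -3.28 ± 0.81 (SE; edgeR adjusted p 0.0678); 2 genes of the list passed as lower in tips without limiting midsection replicate 2, of 7 over all genes, and 1 without limiting midsection replicate 1 or limiting tip replicate 1, of 3 in each fit. A missed threshold at these depths does not show that levels were equal.

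The phosphate window of the rule held for a minority of the list in Pennellii. The ratio of limiting to sufficient phosphate lay between 0.5 and 2 in 97 of the 200 genes in midsections, in 89 in tips and in 48 (24.0%) at both. The share at both positions was 39.8% in the 1058 further genes that passed every filter, 27.0% in the 704 genes outside the M82 window and 39.0% in the 23334 genes with a count, many of which are near 0 and so close to a ratio of 1. The median log2 phosphate ratio of the 200, limiting over sufficient, was -0.60 in midsections and 0.34 in tips, against -0.18 and 0.00 over the 23334 genes. Both had the sign seen in M82; in the fit the tip median was 0.91 with limiting tip replicate 4 and 0.08 without it.

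The position difference of the other abundant genes of the list did not pass the threshold in Pennellii. Solyc09g010800.4.1 averaged 3069 ± 1210 CPM in limiting and 2413 ± 326 CPM in sufficient midsections (SD, n = 3 each), against 1050.0 ± 716 CPM in limiting tips (SD, n = 3) and 1293 and 1173 CPM in sufficient tips; every midsection lay above every tip (log2 fold change 1.07 ± 0.30 SE, edgeR adjusted p 0.0674). Solyc02g077880.3.1 averaged 482 ± 179 and 1008 ± 363 CPM in limiting and sufficient midsections (SD, n = 3 each), against 306 ± 154 CPM in limiting tips (SD, n = 3) and 272 and 457 CPM in sufficient tips (1.02 ± 0.44, adjusted p 0.377). Solyc07g066310.3.1 averaged 455 ± 206 and 530 ± 193 CPM in limiting and sufficient midsections (SD, n = 3 each), against 394 ± 180 CPM in limiting tips (SD, n = 3) and 154 and 128 CPM in sufficient tips (0.91 ± 0.48, adjusted p 0.514). The groups overlap in both of these genes at limiting phosphate and not at sufficient phosphate.

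In M82 these 3 genes had averaged 2685 ± 580, 3853 ± 1328 and 891 ± 99.7 CPM in limiting midsections and 3059 ± 647, 3641 ± 765 and 1184 ± 345 CPM in sufficient midsections, in the order given. Their tips were at 791 ± 151, 706 ± 318 and 249.7 ± 32.1 CPM at limiting and 489.9 ± 57.8, 428 ± 50.3 and 206 ± 28.3 CPM at sufficient phosphate (SD, n = 4 each).

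The list was spread over the genome as far as the IDs show, since by the naming convention of tomato gene models their prefix gives the chromosome. Prefix 1 held 26 of the 200, or 13.0%, against 12.3% of all IDs, and prefix 7 held 22, or 11.0%, against 7.24%. Prefix 10 held 9, or 4.50%, against 7.32%. Among the 200 genes, 3 pairs stood in adjacent rows of the deposited file. At least 1 M82 library had a fractional count in 21.5% of the list and in 21.5% of all IDs.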

How the data were processed

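Root RNA of 32 libraries was read by BrAD-seq, a strand-specific 3′ method, as single reads, per the labels' protocols. The authors deposited expected counts (estimated counts, partly fractional) per gene model in 2 tables; the submitters' processing notes name FastQC, Bowtie 1.2.2, edgeR and limma, without their roles. Which program counted, on which genome build and annotation, is not given in the sources used here, but, per its name, the Pennellii table was mapped to M82, so reads that differ from M82 can be lost. All columns were mapped by the codes in the titles (0 unused).

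CPM came from column totals. For the tests, counts were rounded, filtered (filterByExpr, minimum count 10, minimum total 15) and TMM-scaled, and fitted with edgeR 4.0.16 in R 4.3.3 (robust quasi-likelihood, Benjamini-Hochberg threshold 0.05), with the 4 Pennellii groups in 1 fit. The script was tested on simulated data. The typical biological coefficient of variation was 1.18. Each SE was taken from the log2 fold change and its F value, and a gene without counts in a group gets no fold from the fit. Limiting tip replicate 3 and sufficient midsection replicate 1 of Pennellii hold identical values and were left out, with 3 further libraries under 100000 counts. The labels describe no molecular identifiers.

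The list, its rule and the tests were chosen with earlier results of these data known. Named genes are the 10 of highest rank, the 5 most abundant in sufficient M82 midsections and those called in Pennellii; genes at the edges of the rule are given by value only, and lists by function could not be filled because the IDs are not paired with names. Alternatives were RLE scaling, DESeq2 1.42.0, limma-voom (limma 3.58.1), other filters, the replicate number as a block, other depth minimums and each library left out.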

Additional observations from a re-analysis of the deposited data

Results flagged for a closer look

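Of 80 groups of 4 M82 libraries tested with Dixon's criterion at the 95% level, over the 19 named genes and the summed share, 9 held a library far from the other 3; chance gives about 1 in 20.

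In limiting tips, replicate 4 held 5.44 CPM of Solyc09g092470.2.1, against 0 to 0.624 CPM in the others, and 6.68 CPM of Solyc05g006440.3.1, against 0 to 0.710 CPM. Replicate 3 held 4.26 CPM of Solyc12g010910.2.1, against 0 to 0.513 CPM, and replicate 1 only 39.5 CPM of Solyc04g080010.3.1, against 122 to 136 CPM.

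In limiting midsections, replicate 2 held 33.5 CPM of Solyc01g111900.3.1, against 56.3 to 56.8 CPM in the others. Replicate 3 held 324 CPM of Solyc02g084440.3.1, against 260.0 to 271 CPM. Replicate 1 held 29.9 CPM of Solyc05g006440.3.1, against 14.3 to 16.5 CPM, and 5826 CPM of Solyc02g077880.3.1, against 2953 to 3382 CPM.

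In sufficient tips, replicate 2, the deepest library, held 0.088 CPM of Solyc09g007980.1.1, where the others had no count. In those others 3 counts equal 0.673 to 2.13 CPM.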

How the results depend on the processing

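Membership was counted again under other settings: 176 of the 200 stayed with TMM-scaled totals, 174 with a pseudocount of 5 CPM, 199 with rounded counts, and 139 (without sufficient tip replicate 4) to 193 with 1 M82 library left out. The number with a higher mean in Pennellii midsections was 134 to 149 under other scalings and depth minimums, chosen after seeing the data, and 130 to 164 with 1 library left out.

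Calls over all genes moved widely. Averaged over phosphate, 53 position calls became 255 with DESeq2, 98 with limma-voom, 28 without a filter, 12 with the replicate block, 175 without a depth minimum, 138 when the identical columns were kept too, and 1 to 97 with 1 library left out. The 6 listed genes called higher became 11 with DESeq2, 2 with the block, 11 with a minimum of 400000 counts and 0 to 11 with 1 library left out. At sufficient phosphate 2 calls became 45 (DESeq2), 14 (limma-voom), 1 (no filter), 1 (block), 7 (400000 counts), 32 and 56 (no minimum, identical columns out and kept) and 0 to 7 with 1 left out; DESeq2 called 1 listed gene higher, and the fit with identical columns 1 lower. At limiting phosphate 33 became 62 with RLE, 170 with DESeq2, 60 with limma-voom, 5 with the block and 18 to 45 with 1 left out; listed genes called higher were 10 with DESeq2, 3 with the block, 2 without a depth minimum in both forms and 3 to 9 with 1 left out. The gene called lower, Solyc02g084440.3.1, gave 0 such calls with DESeq2, limma-voom, the block and each other depth minimum, 0 to 1 with 1 left out, and turned to 0.20 with limma-voom and 0.43 without limiting tip replicate 4 on the log2 scale, with a range of -3.76 to 0.43 when 1 library was left out.

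For phosphate in tips 12 calls became 294 with DESeq2, 0 with limma-voom (1212 at an unadjusted p under 0.05), 5 with the block, 22 with 400000 counts, 92 and 143 without a minimum and 1 to 22 with 1 left out. Listed genes were called higher in 2 with DESeq2 and 2 with identical columns, and lower in 2 with DESeq2 and each other depth minimum, in 1 with 5 CPM in 3 libraries, and in 0 to 2 with 1 left out. In midsections 5 became 14 with RLE, 48 with limma-voom (4 listed genes higher), 3 with the block, 16 and 22 without a minimum and 3 to 18 with 1 left out. For the interaction 10 became 18 with RLE, 43 with DESeq2, 0 with limma-voom (754 unadjusted), 0 with the block (390 unadjusted), 17 with 400000 counts, 35 and 42 without a minimum, 1 listed gene lower in that last fit, and 0 to 17 with 1 left out, where listed genes called higher were 0 to 1. The causes were not tested. Where leaving out a sufficient tip left 1 library, that library is assumed to vary like the other groups.

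The replicate numbers did not meet the criterion for pairing, a correlation over 0.1 in every same-numbered pair: these correlated at -0.02 to 0.22, over 0.1 in 3 of 10 pairs. The highest of 35 pairs with different numbers was 0.096, and 6 of 11 libraries correlated best with their own number, and the labels do not say what a number marks. With the block Solyc07g064160.3.1 and Solyc08g082120.2.1 were still called averaged over phosphate, and the other 4 were not. Among the listed genes called averaged over phosphate, the call ended under 5 to 11 of 20 alternatives (adjusted p up to 0.529), with no change of direction; the minimum of 400000 counts and leaving out limiting midsection replicate 2 are the same fit. Depth limits genes near 20 CPM most, since 3 counts equal up to 21.8 CPM in the used Pennellii libraries.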

Other observations

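A further pair of genes separated the Pennellii positions completely without being called, and both are named after their values were seen. Solyc08g076880.3.1, at rank 189, had 3368, 3672 and 5031 CPM in limiting midsections and 2416, 2802 and 2423 CPM in sufficient midsections, against 1546, 1557 and 1664 CPM in limiting tips and 991 and 1818 CPM in sufficient tips (edgeR adjusted p 0.0792). In M82 it averaged 253 and 369.8 CPM in limiting and sufficient midsections, against 93.3 and 68.0 CPM in limiting and sufficient tips. Solyc06g084140.3.1, at rank 64, averaged 142 and 253 CPM in limiting and sufficient Pennellii midsections, against 53.9 and 7.90 CPM in limiting and sufficient tips (edgeR adjusted p 0.0967).

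The Pennellii libraries left out of the tests held the 200 genes at 2.00% of counts in limiting midsection replicate 3, given above, 0.878% in sufficient tip replicate 2 (46018 counts) and 1.73% in sufficient tip replicate 4 (6225 counts, Wilson 95% interval 1.44 to 2.09%). The identical columns, labelled as a limiting tip and a sufficient midsection, held 1.88%.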
